A study of Mus musculus with 15 samples.

Results

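P2 receptors are cell surface receptors for extracellular nucleotides such as ATP, ADP, UTP and UDP. The 9 genes described here, P2ry1, P2ry2, P2ry6, P2ry12, P2ry13, P2ry14, P2rx1, P2rx4 and P2rx7, were chosen by symbol as a receptor family, and all 9 were found among the 19456 genes of the count table. All 9 also passed the filter on low counts, which left 15802 genes for testing. Of the 9, 6 encode P2Y receptors, which signal through G proteins, and 3 encode P2X subunits, which form ion channels opened by ATP. Damaged, dying or activated cells release nucleotides, and enzymes on the cell surface break these down to nucleosides. Macrophages sense nucleotides through these receptors: P2Y receptors are known for roles in migration, process movement and uptake of debris, and P2X7 for the potassium efflux that triggers the inflammasome.

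The data were 15 RNA sequencing libraries from adult male wild-type C57BL/6 mice. There were 3 libraries of Ly6Chi blood monocytes and 4 of each small intestinal macrophage subset, separated by surface staining for the phosphatidylserine receptor Tim-4 and for CD4. The subsets were Tim-4-CD4-, then Tim-4-CD4+, then Tim-4+CD4+, and 3 values given for the subsets keep this order. Each library came from 3 pooled mice (4 for monocyte replicate 2), so a replicate is a pool, and p-values measure the spread between pools. The study describes 4 independent sorts for the macrophages. Whether 1 sort gave all 3 subsets is not stated, so libraries of different subsets may share a pool. The main fit treated them as unpaired. Some libraries of different subsets deviated from their group means alike (values in the last section), and a fit paired by this was not run. The macrophages were sorted from digested gut as CD64+MHCII+ cells with Ly6C+ cells excluded, whereas the monocytes came from blood, so tissue, digestion and cell type cannot be told apart in comparisons with monocytes. The study asked how gut macrophage subsets that differ in their replacement by blood monocytes differ in gene expression. The sorting genes followed the labels: Cd4 ran from 14.5 to 39.2 CPM (counts divided by the scaled library total) in Tim-4-CD4- libraries against 484 to 924 CPM in both CD4+ subsets, and Timd4, the gene of Tim-4, from 336 to 390 CPM in Tim-4+CD4+ libraries against at most 4.47 CPM elsewhere. Mertk and C1qa, which mark macrophages, were at 98.8 and 3180 CPM or more in each macrophage library and at 1.28 and 3.33 CPM or less in the monocytes. Total counts ran from 39388763 to 151510641 per library. CPM values were scaled with TMM (trimmed mean of M-values) factors, and a gene was called at an adjusted p under 0.05 in edgeR's quasi-likelihood test, with Benjamini-Hochberg adjustment over all genes tested.

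Most of the 9 genes lie in clusters in the mouse genome (GRCm38). P2ry14, P2ry13 and P2ry12 lie side by side on the minus strand of chromosome 3 (59113855 to 59153618, 59207892 to 59210882 and 59216272 to 59262871), inside the span of Med12l on the plus strand, and P2ry1 lies 1739923 bases beyond P2ry12. P2rx7 and P2rx4 lie 16111 bases apart on chromosome 5, and P2ry6 and P2ry2 lie 21918 bases apart on chromosome 7. P2rx1 lies on chromosome 11 (72999103 to 73015200). Since 4 of the 5 members that differed between macrophage subsets have a cluster neighbour that was not called, the promoter windows of the 5 are shown, 250 bases before to 50 after the annotated start (RefSeq, GRCm38.p6, first listed start): P2ry2 (chr7:101012004-101012303, - strand), P2rx1 (chr11:72998895-72999194, + strand), P2ry13 (chr3:59210833-59211132, - strand), P2ry14 (chr3:59153443-59153742, - strand) and P2rx4 (chr5:122707294-122707593, + strand). Capitals mark matches on either strand to the letters of the PU.1-type motif GGAAGT, the AP-1-type motif TGANTCA and the E-box CACGTG.
P2ry2: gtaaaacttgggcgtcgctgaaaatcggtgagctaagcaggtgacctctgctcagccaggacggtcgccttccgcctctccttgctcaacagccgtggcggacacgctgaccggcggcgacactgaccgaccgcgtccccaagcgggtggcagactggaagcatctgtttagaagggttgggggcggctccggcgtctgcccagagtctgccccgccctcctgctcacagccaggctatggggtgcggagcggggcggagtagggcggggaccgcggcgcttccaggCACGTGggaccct
P2rx1: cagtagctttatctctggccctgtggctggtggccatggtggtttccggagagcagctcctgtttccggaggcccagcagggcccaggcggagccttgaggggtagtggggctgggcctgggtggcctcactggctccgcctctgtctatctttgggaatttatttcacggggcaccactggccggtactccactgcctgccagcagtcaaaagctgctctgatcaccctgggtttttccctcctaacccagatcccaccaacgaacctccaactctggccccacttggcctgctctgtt
P2ry13: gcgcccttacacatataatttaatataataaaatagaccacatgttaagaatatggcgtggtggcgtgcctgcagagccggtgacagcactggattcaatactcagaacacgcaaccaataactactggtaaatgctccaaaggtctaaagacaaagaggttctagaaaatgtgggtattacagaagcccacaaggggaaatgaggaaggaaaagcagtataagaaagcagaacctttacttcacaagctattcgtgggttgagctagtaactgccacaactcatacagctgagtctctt
P2ry14: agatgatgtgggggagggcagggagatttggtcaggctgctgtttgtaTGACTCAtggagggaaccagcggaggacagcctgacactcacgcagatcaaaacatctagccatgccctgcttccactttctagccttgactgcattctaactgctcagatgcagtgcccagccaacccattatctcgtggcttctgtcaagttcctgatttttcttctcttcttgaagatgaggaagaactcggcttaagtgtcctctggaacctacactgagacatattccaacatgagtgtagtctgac
P2rx4: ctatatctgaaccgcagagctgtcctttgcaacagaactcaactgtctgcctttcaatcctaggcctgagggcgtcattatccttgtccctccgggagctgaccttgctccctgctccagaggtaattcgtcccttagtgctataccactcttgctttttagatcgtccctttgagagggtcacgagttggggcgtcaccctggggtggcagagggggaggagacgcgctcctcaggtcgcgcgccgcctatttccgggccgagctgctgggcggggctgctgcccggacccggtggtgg

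The E-box letters stood in the P2ry2 window, as in 7.24% of 27025 mouse promoter windows, and the AP-1-type letters in that of P2ry14, as in 7.93% of windows. The windows of P2rx1, P2ry13 and P2rx4 held none of the 3 motifs, and GGAAGT, found in 24.1% of windows, was in none of these 5. Further starts are listed for P2ry14, where the window of start 3 held GGAAGT and that of start 2 TGANTCA. Which start these cells use was not tested. Among the members not called between subsets, the P2ry12 window held GGAAGT and CACGTG, the P2rx7 window GGAAGT and TGANTCA, and the P2ry1 window no match, while P2ry6 is named only. The share of G and C was 67.3% for P2ry2, 60.7% for P2rx1 and 60.3% for P2rx4 against 42.3% for P2ry13 and 49.3% for P2ry14. No motif was thus shared by the 5 windows.

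In Ly6Chi monocytes and in all 3 macrophage subsets, P2ry6 was the member with the highest level per kilobase of exon, while the shares of several other members differed between monocytes and macrophages. P2ry6, a receptor for UDP that is known in microglia for uptake of debris, held 49.9% ± 0.326 (SD, n = 3) of the summed CPM per kb of the 9 genes in monocytes, and 43.3% ± 3.12, 37.7% ± 2.56 and 37.4% ± 4.43 (n = 4 each) in the macrophage subsets. P2ry13, a receptor for ADP, held 5.82% ± 1.71 in monocytes and 20.0% ± 2.66, 25.0% ± 2.50 and 26.3% ± 3.19 in the subsets, where it ranked after P2ry6. P2ry1, another ADP receptor, went from 7.47% ± 0.524 to at most 0.0412%, P2ry14 from 0.235% ± 0.0225 to between 1.23% and 1.35%, and P2ry12 from 7.75% ± 1.07 to at most 11.3%. The 3 P2X genes together held 28.2% ± 1.94 in monocytes and 24.0% to 24.3% in the subsets. The summed level was 95.8 ± 6.69 CPM per kb in monocytes and 313 ± 15.1, 363 ± 10.1 and 381 ± 17.4 CPM per kb in the subsets. These shares use merged exon lengths of the annotation, and P2ry14, with the longest of them (11059 bases), may be understated where shorter transcripts are used.

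**Figure D1:**
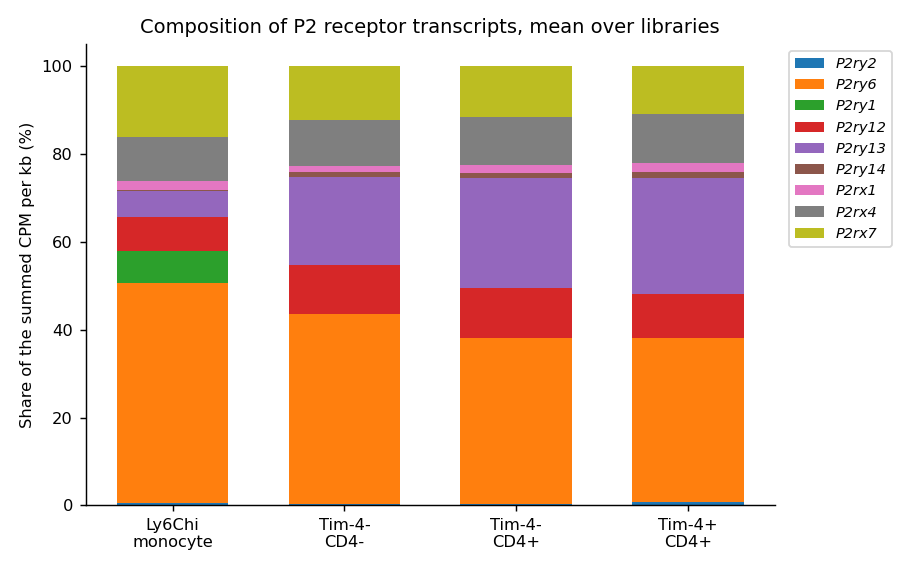
Share of each P2 receptor gene in the summed CPM per kb of the 9 genes (y axis, percent), as the mean over libraries, for monocytes (n = 3) and each macrophage subset (n = 4). P2ry6 made up 49.9% in monocytes and 37.4% to 43.3% in macrophages, P2ry13 went from 5.82% to between 20.0% and 26.3%, and P2ry1 from 7.47% to at most 0.0412%.

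Against monocytes, 8 of 9 members were higher and P2ry1 was lower in each of the 3 macrophage subsets. Over all genes tested, 65.4%, 69.8% and 70.9% were called in the subsets, with 37.3%, 39.1% and 39.5% higher and 28.1%, 30.7% and 31.3% lower. The median log2 fold change of the members was 1.5, 1.7 and 2.2, against 0.08, 0.11 and 0.10 for all genes tested. Libraries of macrophages and monocytes did not overlap for any of the 9 members, as for 67.6%, 70.1% and 68.7% of all genes. The 3 comparisons share their monocyte libraries, so their counts are not independent. In sorted bulk samples, fewer cells that express a gene and less RNA per cell cannot be told apart.

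**Figure D2:**
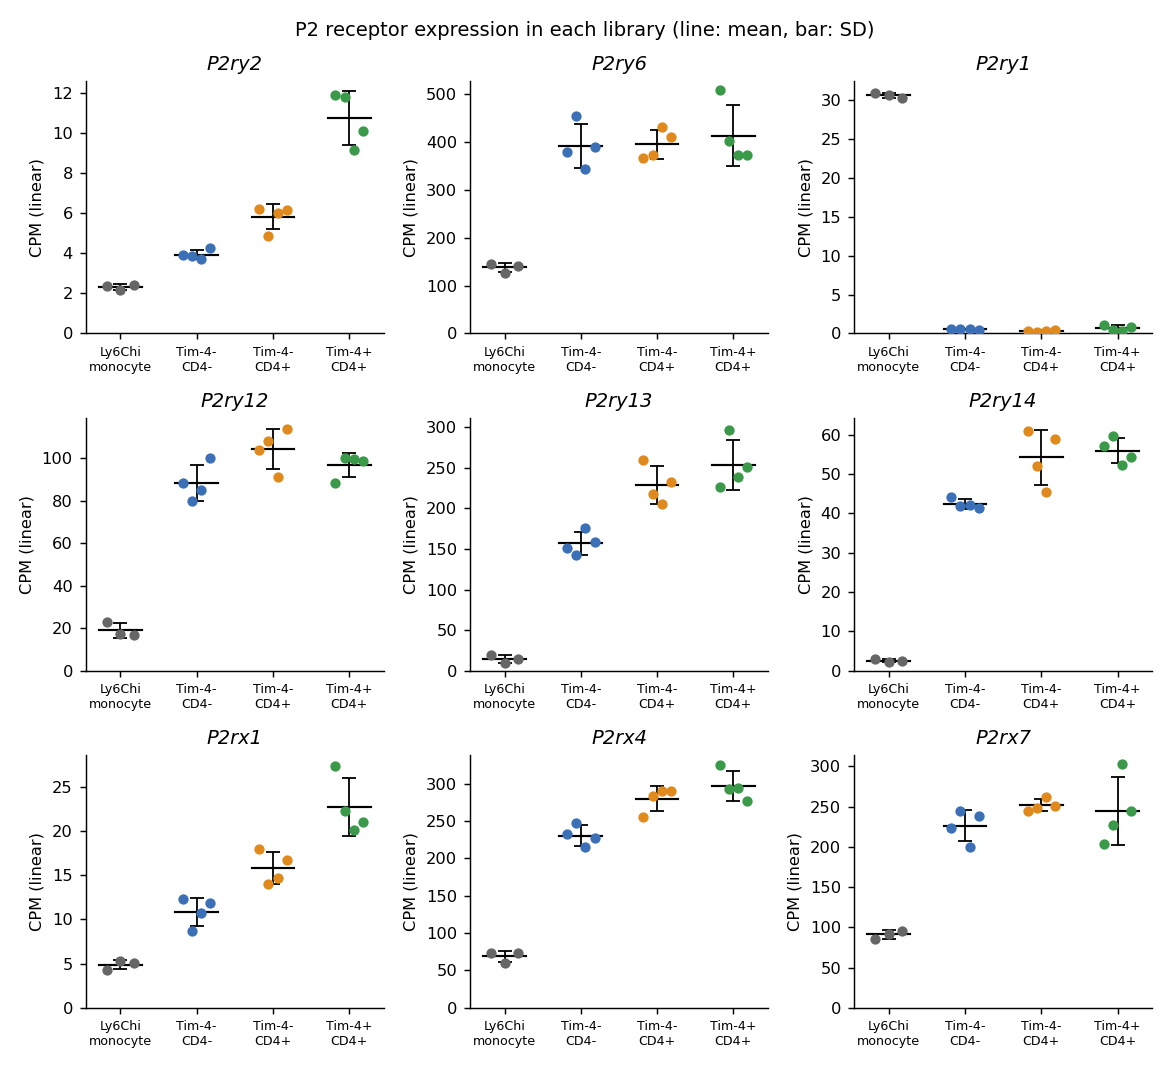
Expression of each of the 9 P2 receptor genes in each library (y axis, CPM on a linear scale from 0, a scale per gene), with a point per library, a line at the mean and a bar for the SD. P2ry2 and P2rx1 step up from the first to the last macrophage subset with no overlap between neighbouring groups, while P2ry1 is near 30 CPM in monocytes and at most at 1.12 CPM in macrophages.

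P2ry2, a receptor for ATP and UTP that couples to Gq and is known for phagocyte migration toward nucleotides from dying cells, differed between all 4 populations. It was at 2.37, 2.17 and 2.43 CPM in the monocyte libraries and at 3.92, 3.85, 3.73 and 4.24 CPM in Tim-4-CD4- macrophages. In Tim-4-CD4+ macrophages it was at 6.19, 4.88, 6.00 and 6.16 CPM, and in Tim-4+CD4+ macrophages at 11.9, 11.8, 9.12 and 10.1 CPM. Each group lay above the one before it without overlap, although replicate 2 of Tim-4-CD4+ was lower than its group. The log2 fold change was 0.56 (SE 0.13, adjusted p = 0.0088) from the Tim-4-CD4- to the Tim-4-CD4+ subset and 0.88 (SE 0.13, adjusted p = 0.0004) from the Tim-4-CD4+ to the Tim-4+CD4+ subset, and these calls held in each of 23 alternative fits (DESeq2, other scalings, filters, sample sets and replicate blocks, and each library left out). Over both steps the difference was 2.72-fold (log2 1.44, SE 0.13, adjusted p = 5.1e-07). The level was low, at 164 to 1367 counts per macrophage library. P2ry2 is 1 of the genes that the study itself picked out of these libraries, so its direction is not independent evidence.

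P2ry6, which also couples to Gq, did not follow P2ry2, its neighbour on chromosome 7. Its level was 127 to 146 CPM in monocytes and 344 to 454, 366 to 431 and 372 to 508 CPM in the subsets. It was 2.84- to 2.99-fold higher in the subsets than in monocytes (adjusted p between 7.8e-09 and 1.8e-08), and the subsets overlapped, with log2 fold changes of 0.01, 0.08 and 0.06 (SE 0.11 each, adjusted p of 0.68 or more). Read against P2ry6 in the same library, which removes any scaling of libraries, P2ry2 gave 0.0101 ± 0.00113, 0.0147 ± 0.00165 and 0.0260 ± 0.00271 counts per P2ry6 count in the subsets (SD, n = 4 each). The highest value of each subset was below the lowest of the next. In monocytes the ratio was 0.0168 ± 0.000473 (n = 3), above all Tim-4-CD4- libraries.

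P2ry1, the Gq-coupled ADP receptor best known from platelets, was the 1 member lower in macrophages. It was at 30.9, 30.7 and 30.3 CPM in monocytes, from 1632 to 4364 counts per library. In Tim-4-CD4- macrophages it was at 0.566, 0.536, 0.625 and 0.388 CPM. The Tim-4-CD4+ libraries gave 0.311, 0.152, 0.307 and 0.459 CPM. Tim-4+CD4+ libraries gave 1.12, 0.491, 0.305 and 0.796 CPM. All macrophage libraries were far below all monocyte libraries, and the subsets overlapped. Relative to monocytes the level was 57.3-, 92.3- and 44.6-fold lower (log2 -5.84, -6.53 and -5.48, adjusted p = 2.3e-10 or less). Macrophage libraries held 6 to 115 counts, and no difference between subsets was called: Tim-4+CD4+ over Tim-4-CD4+ gave a log2 fold change of 1.05 (SE 0.33, adjusted p = 0.11). That difference passed in DESeq2 (adjusted p = 0.018) and without Tim-4+CD4+ replicate 3 (adjusted p = 0.021). In the monocytes the summed level of 8 platelet marker genes was 2.56 to 4.05 CPM, with Gp9 and Gp1ba, which define platelets, at 0.223 CPM or less. Itga2b, Ppbp and Clec1b gave the most, at 0.856 to 1.42, 0.35 to 1.02 and 0.701 to 0.855 CPM. The part of platelet RNA in the monocyte level of P2ry1 was not tested.

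P2ry12, P2ry13 and P2ry14 couple to Gi. P2ry12 is the ADP receptor of platelets and microglia, P2ry13 is its relative with the same ligand, and P2ry14 responds to UDP-glucose. These chromosome 3 genes showed the largest increases over monocytes among the members: 4.66- to 5.49-fold for P2ry12, 11- to 17.7-fold for P2ry13 and 16.9- to 22.3-fold for P2ry14 (adjusted p = 1.8e-10 or less for each). P2ry14 was at 2.93, 2.22 and 2.34 CPM in monocytes and at 41.3 CPM or more in each macrophage library.

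Between macrophage subsets these genes divided. P2ry13 was at 151, 143, 176 and 159 CPM in the Tim-4-CD4- libraries, at 260, 218, 205 and 233 CPM in those of Tim-4-CD4+ macrophages and at 226, 297, 239 and 251 CPM in the Tim-4+CD4+ subset. P2ry14 was at 44.1, 41.9, 42.1 and 41.3 CPM in the Tim-4-CD4- libraries, at 60.8, 52.0, 45.5 and 58.8 CPM in those of Tim-4-CD4+ macrophages and at 57.2, 59.7, 52.3 and 54.4 CPM in the Tim-4+CD4+ subset. For both genes every CD4+ library lay above every Tim-4-CD4- library, and the CD4+ subsets overlapped with each other. From the Tim-4-CD4- to the Tim-4+CD4+ subset the log2 fold change was 0.68 for P2ry13 (SE 0.16, adjusted p = 0.0056) and 0.40 for P2ry14 (SE 0.10, adjusted p = 0.0073), and both calls held in all 23 alternatives. From the Tim-4-CD4- to the Tim-4-CD4+ subset it was 0.54 for P2ry13 (SE 0.16, adjusted p = 0.046) and 0.36 for P2ry14 (SE 0.10, adjusted p = 0.030). From the Tim-4-CD4+ to the Tim-4+CD4+ subset it was 0.15 and 0.04 (adjusted p = 0.71 and 0.87).

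The calls between the Tim-4- subsets were close to the threshold. That of P2ry13 was lost in 12 of the 23 alternatives, with adjusted p from 0.051 to 0.12: without monocyte replicate 3, any single Tim-4-CD4- replicate, Tim-4-CD4+ replicate 1, 2 or 4, or Tim-4+CD4+ replicate 3 or 4, and under both replicate blocks. That of P2ry14 was lost in 7, with adjusted p from 0.052 to 0.11: without any single Tim-4-CD4- replicate or Tim-4-CD4+ replicate 1 or 4, and under 1 of the blocks.

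P2ry12 was at 88.6 ± 8.67, 104 ± 9.59 and 96.8 ± 5.73 CPM in the subsets (SD, n = 4 each), against 16.8 to 23.0 CPM in monocytes. The subsets overlapped, and the log2 fold changes were 0.24 (SE 0.11, adjusted p = 0.20) from the Tim-4-CD4- to the Tim-4-CD4+ subset, 0.13 (adjusted p = 0.44) to Tim-4+CD4+ and -0.11 (adjusted p = 0.68) between the CD4+ subsets. P2ry13 lies 5389 bases from P2ry12, and the count ratio of P2ry13 to P2ry12 in the same library was 0.743 ± 0.168 in monocytes (SD, n = 3) and 1.79 ± 0.204, 2.20 ± 0.224 and 2.62 ± 0.249 in the subsets (n = 4 each). The Tim-4+CD4+ libraries (2.39 to 2.97) lay above the Tim-4-CD4- libraries (1.59 to 2.07), while those of Tim-4-CD4+ (2.02 to 2.50) overlapped with both. For P2ry14 to P2ry13 the ratio was 0.270 ± 0.0259, 0.237 ± 0.0128 and 0.223 ± 0.0223 in the subsets, with overlapping libraries.

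**Figure D3:**
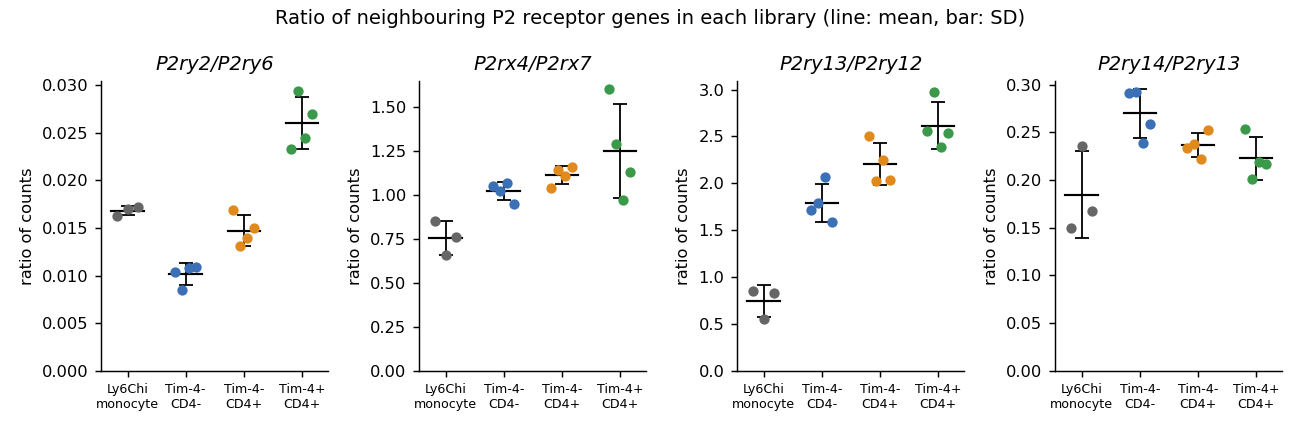
Ratio of the counts of neighbouring P2 receptor genes within each library (y axis, linear from 0), with a point per library, a line at the mean and a bar for the SD. P2ry2 over P2ry6 separates the 3 macrophage subsets, from a mean of 0.0101 to 0.0260, while P2ry13 over P2ry12, with means from 1.79 to 2.62, overlaps between neighbouring subsets only, and P2rx4 over P2rx7 and P2ry14 over P2ry13 overlap between all subsets.

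Med12l, which encodes a Mediator subunit and spans the 3 genes on the opposite strand, was at 2.56 CPM in monocytes and at 9.59, 17.5 and 21.8 CPM in the subsets, with a log2 fold change of 1.18 (SE 0.17, adjusted p = 9.8e-05) from the Tim-4-CD4- to the Tim-4+CD4+ subset. The libraries were made with a stranded kit, but the strand setting of the count was not given in the sources used here. Exons of Med12l shared 9 of 2546 bases with exons of P2ry12 and 0 with those of P2ry13 and P2ry14. Gpr171, a further G protein-coupled receptor gene in this region, was at 0.735 CPM in monocytes and at 57.9, 96.3 and 99.0 CPM in the subsets, with a log2 fold change of 0.77 (SE 0.20, adjusted p = 0.011) from the Tim-4-CD4- to the Tim-4+CD4+ subset.

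P2rx1 encodes a fast-desensitizing channel subunit. It was at 4.29, 5.33 and 5.02 CPM in monocytes and at 12.3, 8.73, 10.7 and 11.8 CPM in Tim-4-CD4- macrophages. In Tim-4-CD4+ macrophages it was at 17.9, 14, 14.7 and 16.7 CPM, and in Tim-4+CD4+ macrophages at 27.4, 22.2, 20.1 and 21.0 CPM. As for P2ry2, each group lay above the one before it without overlap. The log2 fold change was 0.54 (SE 0.13, adjusted p = 0.013) from the Tim-4-CD4- to the Tim-4-CD4+ subset and 1.06 (SE 0.13, adjusted p = 1.7e-05) to Tim-4+CD4+, and both calls held in the 23 alternatives. From the Tim-4-CD4+ to the Tim-4+CD4+ subset it was 0.52 (SE 0.13, adjusted p = 0.034), which was lost in 9 alternatives, with adjusted p from 0.051 to 0.12: without Tim-4-CD4+ replicate 2, 3 or 4 or Tim-4+CD4+ replicate 1, 2 or 4, in the fit of these populations alone and under both blocks.

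P2rx4 and P2rx7 encode subunits of slower channels, P2rx4 of one that also traffics through lysosomes and P2rx7 of the low-affinity ATP receptor upstream of NLRP3. P2rx4 was at 73.0, 60.4 and 72.9 CPM in monocytes, at 233, 248, 215 and 227 CPM in the Tim-4-CD4- libraries, at 256, 284, 290 and 291 CPM in those of Tim-4-CD4+ macrophages and at 325, 293, 294 and 277 CPM in the Tim-4+CD4+ subset. All CD4+ libraries were above all Tim-4-CD4- libraries. P2rx4 was 3.36- to 4.33-fold higher than in monocytes (adjusted p = 1e-10 or less), and the log2 fold change from the Tim-4-CD4- to the Tim-4+CD4+ subset was 0.37 (SE 0.09, adjusted p = 0.0050). That from the Tim-4-CD4- to the Tim-4-CD4+ subset was 0.28 (SE 0.09, adjusted p = 0.049) and was lost in 14 of the 23 alternatives, with adjusted p from 0.054 to 0.16: without monocyte replicate 3, Tim-4-CD4- replicate 1, 3 or 4, Tim-4-CD4+ replicate 2, 3 or 4 or Tim-4+CD4+ replicate 2, 3 or 4, and in 4 other fits.

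P2rx7 was at 85.7 to 96.0 CPM in monocytes and at 200 to 244, 245 to 262 and 203 to 303 CPM in the subsets. It was 2.48- to 2.76-fold higher than in monocytes (adjusted p = 5.2e-08 or less). Between subsets its log2 fold changes were 0.15, 0.11 and -0.04 (SE 0.11 each, adjusted p of 0.45 or more), although the Tim-4-CD4+ libraries did not overlap with those of Tim-4-CD4-. The count ratio of P2rx4 to P2rx7 was 0.756 ± 0.0980 in monocytes, with 1.02 ± 0.0525, 1.11 ± 0.0525 and 1.25 ± 0.268 in the subsets, which overlapped. Of the other neighbours, Fchsd2 and Arhgef17, next to P2ry2 and P2ry6, and Camkk1, next to P2rx1, were called higher than in monocytes in each subset. Over all genes, 37.3%, 39.1% and 39.5% were called higher. P2rx5, also next to P2rx1, had 7 counts in all monocyte libraries together and 0.456 CPM or less in each subset. It could pass the filter only through the macrophages, so its direction was fixed in advance. Camkk2, a kinase gene next to P2rx4, was lower, at 389 CPM in monocytes and at 19.4, 11.9 and 12 CPM in the subsets.

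**Figure D4:**
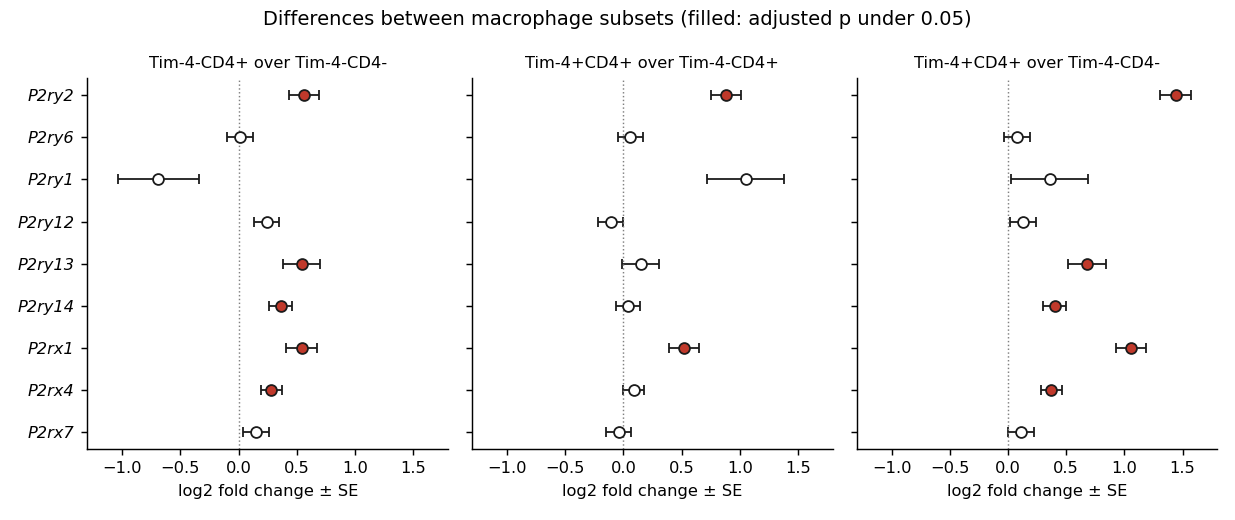
Log2 fold change (x axis, with SE as bars) of each P2 receptor gene between macrophage subsets, in panels for Tim-4-CD4+ over Tim-4-CD4-, Tim-4+CD4+ over Tim-4-CD4+ and Tim-4+CD4+ over Tim-4-CD4- (n = 4 each). Filled points passed an adjusted p of 0.05: 5, 2 and 5 of 9 genes, all to the right of 0, with P2ry2 and P2rx1 in all panels.

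Across the members, P2ry2, P2ry13, P2ry14, P2rx1 and P2rx4 (5 of 9) were called higher in Tim-4-CD4+ than in Tim-4-CD4- macrophages, where 10.1% of all genes were called, 4.52% higher and 5.53% lower. These 5 were also called higher in Tim-4+CD4+ than in Tim-4-CD4- macrophages, where 23.1% of all genes were called, 11.3% higher and 11.9% lower, and these comparisons share the Tim-4-CD4- libraries. Between the CD4+ subsets, P2ry2 and P2rx1 were called higher, 2 of 9 members, against 3.41% of all genes called, 2.07% higher and 1.34% lower. No member was called lower between subsets in edgeR or DESeq2, and 0 of 9 were lower at an unadjusted p under 0.05 in edgeR. The median log2 fold change of the members was 0.28, 0.37 and 0.09, against 0.00 for all genes in each. Libraries did not overlap for 6, 5 and 2 members, as for 19.1%, 26.4% and 9.63% of all genes. The first count is the least firm: it was 3 under the replicate block by titles, 2 under that by descriptions and between 2 and 5 with a library left out. The libraries most alike across subsets differed in both numbers, so the blocks cannot show how this count stands under another pairing.

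Over the 12 macrophage libraries, which share subset and depth differences, the log2 CPM of P2ry2 and P2rx1 had a Pearson correlation of 0.951, and that of P2ry13 and P2ry14 one of 0.907, given as descriptions. Among 11797 genes compared, Adrb1 (r = 0.980), Mcoln2 (0.979) and Dkk3 (0.976) were most like P2ry2, and Mdfi (0.976), Mcoln2 (0.973) and Capn3 (0.972) were most like P2rx1. Lilra5 (0.975), Inpp1 (0.973) and Bank1 (0.971) were most like P2ry13, and Lag3 (0.978), Zfp691 (0.970) and Panx1 (0.968) were most like P2rx4. E230029C05Rik (0.958), Slc22a5 (0.955) and Hpgds (0.947) were most like P2ry14, and Cd33 (0.935), Tmem184c (0.913) and Ms4a6b (0.904) most like P2ry12. For P2ry6 they were Pithd1 (0.949), Litaf (0.940) and Cnppd1 (0.933), for P2rx7 Foxo1 (0.940), Slf2 (0.938) and Abraxas2 (0.902), and for P2ry1 Ptp4a3 (0.885), Dnajb12 (0.866) and 2210016L21Rik (0.859).

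Of 7 further P2 family genes considered, 6 were in the table and 4 were tested. P2rx6, a P2X subunit gene, had 3 counts in all monocyte libraries together and 1986, 5715 and 8361 counts in the subsets, at 9.75 ± 2.27, 17.2 ± 1.47 and 24.2 ± 4.78 CPM (SD, n = 4 each). The pooled ratio to monocytes was 988 (95% exact interval 338 to 4800, counting error only) for Tim-4-CD4- macrophages. P2rx6 could pass the filter only through the macrophages, so the direction of this ratio was fixed in advance. Like P2rx1, P2rx6 was higher in both CD4+ subsets than in Tim-4-CD4- macrophages, with log2 fold changes of 0.82 (SE 0.18, adjusted p = 0.0063) and 1.31 (SE 0.18, adjusted p = 4.6e-05). The difference of 0.49 between the CD4+ subsets was not called (adjusted p = 0.18). P2ry10b, of the P2Y10 pair of lysophosphatidylserine receptor genes, went the other way, from 32.1 ± 6.60 CPM in monocytes (n = 3) to 3.06 ± 0.980, 1.97 ± 0.693 and 1.36 ± 0.381 CPM. P2ry10 was at 0.148 ± 0.0678 CPM in monocytes and at 4.72 ± 3.36, 3.00 ± 0.583 and 1.63 ± 0.312 CPM in the subsets, where Tim-4-CD4- replicate 3, at 9.72 CPM, stood above the other 3 libraries of its group, at 2.52 to 3.38 CPM. Both genes were lower in Tim-4+CD4+ than in Tim-4-CD4- macrophages, with a log2 fold change of -1.14 for P2ry10b (adjusted p = 0.0071) and of -1.53 for P2ry10 (adjusted p = 0.0058), which was -0.90 without that replicate (adjusted p = 0.027). P2ry10 and P2ry10b are close paralogs. The study used uniquely mapped reads only, so reads that matched both genes equally well would have been left out. P2rx5, P2rx2 and P2rx3 were at 0.456 CPM or less in every population.

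The genes around the receptors were read from lists of the pathway. Of 7 tested genes for nucleotide release, 1 was called higher in each CD4+ subset than in Tim-4-CD4- macrophages, beside 4.52% and 11.3% of all genes. This gene, Panx1, which encodes an ATP release channel that P2X7 can open, was at 36.1 ± 5.44, 55.0 ± 2.73 and 60.4 ± 10.5 CPM in the subsets (SD, n = 4 each). Its log2 fold changes from Tim-4-CD4- were 0.61 (SE 0.13, adjusted p = 0.0052) and 0.74 (SE 0.13, adjusted p = 0.00043). Ectonucleotidase genes encode enzymes that degrade nucleotides outside the cell. Of 7 tested, 7, 6 and 6 were called higher than in monocytes in the subsets, beside 37.3%, 39.1% and 39.5% of all genes. Among them Entpd2, Entpd3, Enpp3, Nt5e and Alpl were at 0.617 CPM or less in every population. Monocytes held 0 counts of Entpd2, Enpp3 and Alpl and 1 of Nt5e. These genes could pass the filter only through the macrophages, so their direction was fixed in advance. The counts are thus not a result about the enzymes as a group. Enpp1, which hydrolyses ATP to AMP and pyrophosphate, was at 0.675, 10.4, 18.1 and 26.1 CPM in monocytes and the 3 subsets, with log2 fold changes of 0.80, 1.33 and 0.53 between subsets (SE 0.12 each, adjusted p = 0.00042, 7.3e-07 and 0.019). The call between the CD4+ subsets was lost in 2 alternatives. Entpd1, which encodes CD39, was at 60.9, 261, 343 and 341 CPM, and its difference between the first and last subset (log2 0.38, adjusted p = 0.036) was lost in 7 alternatives. Entpd3, the remaining gene called between subsets, was at 0.241 CPM or less.

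Of 23 tested genes of the P2Y signal path, 2 were called higher and 4 lower in Tim-4-CD4+ than in Tim-4-CD4- macrophages, and 5 higher and 5 lower in Tim-4+CD4+ macrophages. Over all genes tested, 10.1% and 23.1% were called in these comparisons. In the first, 3 of the 6 calls held in all alternatives (Itpr1, Rgs2 and Rgs18), while those of Arrb1, Gnai2 and Rgs1 were lost in 15, 4 and 1. In the second, 5 of 10 held (these genes with Gnai2 and Arrb1), while those of Gnai3, Arrb2, Itpr3, Rgs1 and Gna11 were lost in 12, 12, 6, 5 and 1. Rgs18, a regulator that limits Gi and Gq signals, was at 25.4 CPM in monocytes and at 4.03, 0.498 and 0.0841 CPM in the subsets, with log2 fold changes of -3.08, -5.47 and -2.39 between subsets (adjusted p = 2.5e-06, 6.7e-09 and 0.00062). Itpr1, a calcium release channel of the endoplasmic reticulum, was at 188 CPM in monocytes and at 19.9, 10.7 and 6.57 CPM in the subsets, with a log2 fold change of -1.60 (SE 0.21, adjusted p = 2.7e-05) from the Tim-4-CD4- to the Tim-4+CD4+ subset. Arrb1, a beta-arrestin that ends receptor signals, was lower in Tim-4+CD4+ than in Tim-4-CD4- macrophages, at 112 against 169 CPM (log2 -0.60, adjusted p = 0.00057). The more abundant beta-arrestin gene Arrb2 went the other way, at 607 against 500 CPM (log2 0.28, adjusted p = 0.044), the call lost in 12 alternatives. The path as a whole thus had calls in both directions, with a median log2 fold change of -0.01 and -0.05.

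Of 12 genes listed around P2X7 and the inflammasome, Nlrp3 and Trem2 were called lower in both CD4+ subsets than in Tim-4-CD4- macrophages. Gsdmd was called higher in Tim-4+CD4+ macrophages. These 2 and 3 of 12 genes stand beside 10.1% and 23.1% of all genes called, so they are given as values of single genes and not as a result about the path. Nlrp3, the inflammasome sensor, was at 92.8 CPM in monocytes and at 403, 302 and 258 CPM in the subsets, with log2 fold changes of -0.42 and -0.64 from Tim-4-CD4- (SE 0.09 each, adjusted p = 0.0047 and 4.4e-05). P2rx7 itself was not called in these comparisons. Trem2, a lipid receptor of myeloid cells, fell to 12 and 7.73 from 24.9 CPM (log2 -1.05 and -1.68, adjusted p = 0.0014 and 6.4e-06). Gsdmd, the pore protein of pyroptosis, gave a log2 fold change of 0.35 (SE 0.11, adjusted p = 0.030), which was lost in 7 alternatives.

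Markers of other cells moved with some of these comparisons. The summed level of 8 platelet marker genes was 2.56 to 4.05 CPM in monocytes and 189 to 209, 249 to 324 and 298 to 405 CPM in the subsets. In the macrophages 3 of the 8 were at 1 CPM or more, Pf4 (121 to 200 CPM), Clec1b (54.4 to 202 CPM) and Ppbp (1.19 to 3.34 CPM), while the platelet-defining genes Gp9 and Gp1ba were at 0.0253 CPM or less. Platelets express P2ry1, P2ry12 and P2rx1. The sum of 4 endothelial genes was 108 to 123, 174 to 215 and 287 to 347 CPM in the subsets. Of this, Pecam1 alone, also expressed by myeloid cells, gave 102 to 335 CPM. Cdh5 was at 2.05 to 6.44 CPM, Kdr at 0.861 to 10.1 CPM and Cldn5 at 1.28 CPM or less in macrophage libraries. In monocytes Cdh5 and Kdr were at most at 1.41 and 0.468 CPM. The sum of 4 mesenchymal genes was 0.0195 CPM or less in monocytes and 38.6 to 57.0, 44.8 to 62.3 and 61.4 to 83.3 CPM in the subsets, with all 4 at 1 CPM or more. The sum of 5 blood monocyte genes, including the sorting gene Ly6c2, went from 7090 to 9360 CPM in monocytes to 555 to 829, 75.4 to 135 and 14 to 25.1 CPM.

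Some of the other lists also separated subsets. The 5 dendritic cell genes summed to 25.2 to 37.8 CPM in monocytes and to 37.8 to 65.0, 28.1 to 36.1 and 26.5 to 44.0 CPM in the subsets. The sums of Tim-4-CD4- libraries lay above those of Tim-4-CD4+ libraries. The genes of this list differed in pattern. Flt3 was at a mean of 8.65 CPM in the first and 0.572 CPM in the last subset, and Ccr7 at 7.18, 2.66 and 1.85 CPM. Tim-4-CD4- libraries were uneven, from 4.41 to 17.9 CPM for Flt3, 3.43 to 14.3 CPM for Ccr7 and 0.932 to 5.3 CPM for Zbtb46. Clec9a, the largest part of the sum, changed little, at 29.2, 25.6 and 27.4 CPM. Xcr1 was at 2.83, 2.61 and 2.62 CPM and Zbtb46 at 2.24, 1.12 and 1.70 CPM. The 5 T cell genes were at 0.418 CPM or less in monocytes and at 2.17 to 4.91, 6.56 to 9.97 and 4.59 to 6.76 CPM in the subsets. For eosinophils the sums were at most 0.687 CPM in monocytes and 5.75 to 9.96, 9.3 to 11.2 and 12 to 17.9 CPM in the subsets, of which Siglecf gave 4.98 to 16.7 CPM. For mast cells, with 2 of 5 genes in the table, they were 0.0681 CPM or less and 5.02 to 14, 2.48 to 3.15 and 0.924 to 2.1 CPM, nearly all of it Kit, with Cpa3 at 0 in both Tim-4- subsets. The 5 genes of neurons and glia were at 0.149 CPM or less, then at 1.39 to 2.25, 1.04 to 2.34 and 5.49 to 7.21 CPM, with Elavl4 at a mean of 3.88 CPM in the last subset. Neutrophil genes summed to 446 to 463 CPM in monocytes and 146 to 201 CPM in macrophages, B cell genes to 8.24 to 10.4 and 35.5 to 70.5 CPM and epithelial genes to 0.35 to 1.65 and 8.12 to 26.1 CPM. The part of RNA from these cells in the receptor differences was not tested. A list of 6 microglia-associated genes, which gut macrophages also express in part, gave 234 to 252 CPM in monocytes and 428 to 637 CPM in macrophages.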

How the data were processed

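RNA was sequenced from stranded mRNA libraries of sorted cells. The authors trimmed reads with Trimmomatic 0.36, aligned them with STAR to GRCm38.p4, counted reads per gene with HTSeq 0.6.1p1 and deposited raw counts, which were used here as deposited; strand setting not given in the sources used here. All genes listed had 16 or more reads over the libraries, and 15 columns of the authors' normalized values were not used. Gene positions and exon lengths came from GENCODE M21, in which 19421 of 19456 identifiers matched.

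Counts were filtered with filterByExpr by population, scaled with TMM and tested in 1 edgeR 4.0.16 quasi-likelihood fit over 15 libraries (R 4.3.3, limma 3.58.1), with no replicate block and with Benjamini-Hochberg adjustment over the 15802 genes of each of 6 comparisons at a threshold of 0.05. CPM used TMM-scaled totals, log2 CPM a prior count of 2, and levels between genes CPM per kb of merged exon. Samples were grouped by their titles. The 23 alternatives were DESeq2 1.42.0, 2 other scalings, 2 other filters, fits of 2 populations alone, 2 replicate blocks and each of 15 libraries left out. Tables and figures used Python 3.11.15, pandas 2.3.3 and matplotlib 3.10.9. The method was tested on simulated counts of the 12 macrophage libraries alone, for Tim-4+CD4+ against Tim-4-CD4- macrophages (14901 genes, 200 changed). It recovered 38% of 1.5-fold, 70% of 2-fold and 98% of 4-fold changes, and 6.13% of its 163 calls were false. The reported fit also held the monocytes, and 23.1% of genes were called in this comparison. The rates of the simulation thus do not give the power of the reported fit. Counting intervals cover counting error only.

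Genes were named by rule: the 9 receptors, other P2 genes at 1 CPM or more, in each pathway list the 3 genes with the largest change among calls between subsets, annotated neighbours, and the 3 genes most alike over 12 macrophage libraries. The receptors and lists were chosen with earlier results of these data known. Ratios of neighbouring genes were added after their values were seen.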

Additional observations from a re-analysis of the deposited data

Results flagged for a closer look

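Of 27 groups of 4 macrophage libraries, 1 for each gene and subset, 2 held a library set apart from the rest of its group, where chance gives about 1 in 20. P2ry2 was at 4.88 CPM in Tim-4-CD4+ replicate 2 and at 6.00 to 6.19 CPM in the other 3 libraries, a gap of 0.851 of the range. P2ry12 was at 88.3 CPM in Tim-4+CD4+ replicate 1 and at 98.6 CPM or more in the other 3, a gap of 0.860 of the range. The call of P2ry2 in each comparison held without either library, and P2ry12 was called between no subsets with or without them.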

How the results depend on the processing

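All 9 members kept their call and direction against monocytes in the 23 alternatives, as did the 5 calls between the first and last subset (Tim-4-CD4- and Tim-4+CD4+). Among 1242 fold changes refitted, 1189 kept direction and side of the threshold, 42 lost their call, 2 gained one and 9, none of them called, changed sign. The count of members called between the Tim-4- subsets, 5, ran from 2 to 5 with a library left out, and that of all genes, 1589, from 1033 (without Tim-4-CD4+ replicate 4) to 2203. Between the CD4+ subsets the 2 members became 1 to 3 with a library left out and 1 in the fit of these populations alone, and the 539 genes became 917 in DESeq2. Fold changes that changed sign with a library left out were those of P2ry6, P2ry1, P2ry14 and P2rx7, in comparisons where none was called. The lowest and highest were -0.04 and 0.09 for P2ry6 between the Tim-4- subsets. They were -0.03 and 0.17 for P2ry6 and -0.01 and 0.60 for P2ry1 between the first and last subset. Between the CD4+ subsets they were -0.05 and 0.12 for P2ry6, -0.02 and 0.11 for P2ry14 and -0.15 and 0.04 for P2rx7. The cause was not tested. For Tim-4+CD4+ macrophages against monocytes the median of all genes was 0.10, with 0.15 and 0.21 under RLE and upper quartile scaling, 0.20 with all genes of at least 1 count and 0.24 in DESeq2, which differs in more than its scaling. Without TMM factors, 3 of 36 mean levels moved by more than the SD. P2ry1 had 6 to 115 counts per macrophage library, which limits its precision there.

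A replicate block by titles left 3 members called between the Tim-4- subsets and a block by descriptions 2, and each block left 1 between the CD4+ subsets. The numbers differ between titles and descriptions and are not stated to mark shared mice. Deviations of libraries with the same number correlated between -0.123 and 0.134 by titles and between -0.0888 and 0.161 by descriptions, and 2 and 6 of 15 libraries were closest to one of their own number. The highest correlations between populations, 0.24, 0.219, 0.184 and 0.173, joined macrophage libraries whose numbers differed in both. For each Tim-4-CD4- library, the closest library of either CD4+ subset was a different one. Tim-4-CD4- replicate 2 gave 0.24 with Tim-4-CD4+ replicate 3 and 0.184 with Tim-4+CD4+ replicate 3. A fit paired in this way was not run, so sharing of pools was not tested.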
